A study of Homo sapiens with 112 samples.

Results

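The clustered histone genes were followed across VCaP and LAPC4, established androgen-responsive lines from human prostate cancer. Members were the rows with a symbol that began with HIST1H, HIST2H, HIST3H or HIST4H, that did not end in a pseudogene suffix and that reached 10 reads in 4 or more libraries of one cell line. By this rule, 43 of the 58684 listed genes were members. RefSeq lists 38 of them as protein coding and 5 as pseudogenes, namely HIST2H2BA, HIST2H2BB, HIST2H2BC, HIST2H2BD and HIST1H3PS1. The last of these passed the letter of the rule because its symbol ends in PS and a digit. A further 45 histone rows were left out for low counts only. HIST1H2AK was just outside, with 9 reads in the fourth highest VCaP library and 8 in the fourth highest LAPC4 library. The filter kept 36 members in VCaP, 40 in LAPC4 and 33 in both.

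Hormone was withdrawn from both lines for 2 days by the use of 10% charcoal-stripped serum. The cells then received the vehicle DMSO, the synthetic androgen R1881 at 1 nM, or 1 nM R1881 together with the antiandrogen darolutamide at 500 nM or 2 µM. Cells were collected after 8 or 22 h. In the order DMSO, R1881, 500 nM and 2 µM darolutamide, the VCaP groups had 10, 10, 4 and 5 libraries at 8 h and 8, 9, 4 and 5 at 22 h. LAPC4 DMSO was sampled 10 times at 8 h and 7 times at 22 h, R1881 10 times at each time point, and each darolutamide group 5 times. Each condition was measured in 1 established line at a time, so the values describe these lines. The study states fewer biological replicates per condition than many of these groups have libraries. Which libraries came from separate cultures is not given in the labels, so the p-values measure the spread between libraries, which may be technical in part.

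Histones package DNA into nucleosomes. H2A, H2B, H3 and H4 form the protein core, and H1 binds the linker DNA between nucleosomes. Most clustered histone genes are expressed in S phase, when new DNA has to be packaged, and lie in a large cluster on chromosome 6 and smaller ones on chromosome 1. Their mRNAs normally end in a stem-loop that is bound by SLBP and lack a poly(A) tail, although many of these genes can also make a polyadenylated form. The libraries were prepared after capture of mRNA on poly-T beads. The read counts therefore mainly reflect polyadenylated forms and whatever tailless RNA was carried along, and not the whole pool of histone mRNA.

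The gene counts of a library summed to 12.2 to 25.2 M reads (medians 20.3 M in VCaP and 20 M in LAPC4). ERG, which is driven by a gene fusion in VCaP, had 1578 to 21554 reads in VCaP libraries and 0 to 1 in LAPC4 libraries. KRT8, KRT18 and KLK3, markers of prostate epithelium, were present in both lines. The summed level of 7 markers of immune cells, fibroblasts and endothelium was 0.545 to 1.97 CPM (reads per unit of library size, TMM-scaled) in VCaP and 0.312 to 1.75 CPM in LAPC4. These are bulk measurements, so a change in the share of cells that express a gene and a change in RNA per cell cannot be told apart.

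The stem-loop was found in all 38 protein-coding members. It spans 16 bases and started 22 to 67 bases after the stop codon (median 35.5), as read from the GENCODE 44 transcripts. The 8 different stem-loops are shown because they are the part that the usual, tailless histone mRNA ends in. The 4 bases of the loop are in capitals and the arms of the stem in lower case, in DNA letters.
Stem-loop of 21 members, among them HIST2H2BE and HIST1H2AC: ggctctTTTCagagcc
Stem-loop of 5 members, among them HIST1H2BD: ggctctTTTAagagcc
Stem-loop of 4 H4 members, first form: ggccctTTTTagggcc
Stem-loop of 4 H4 members, other form: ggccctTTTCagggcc
Stem-loop of HIST2H2AC: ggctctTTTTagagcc
Stem-loop of HIST1H3E: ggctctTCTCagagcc
Stem-loop of HIST1H2BI: ggctctTCTAagagcc
Stem-loop of HIST1H2AG: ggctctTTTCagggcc
The first arm was ggccct in 8 of 8 H4 members and ggctct in the other 30. A poly(A) signal, AATAAA or ATTAAA in the last 50 bases of an annotated transcript, was present in 17 of the 38 members. By class these were 9 of 15 H2B, 4 of 8 H4, 2 of 8 H2A, 2 of 5 H3 and 0 of 2 H1 genes. In the annotation, 16 of the 38 members had a long form, defined as more than 1 exon or a 3′ UTR of over 200 bases, and 22 had short unspliced forms only.

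The promoters of HIST2H2BE and HIST1H2AC are shown because these genes, both abundant, went in opposite directions with R1881 in VCaP. HIST2H2BE encodes an H2B protein and HIST1H2AC an H2A protein. Each sequence holds the 250 bases before the start of the gene, 5′ to 3′ on the gene's strand, from RefSeq on GRCh38.p14. Capitals mark the octamer ATTTGCAT, the CCAAT box and the TATA box TATAAA, each on either strand.
HIST2H2BE, chr1:149886683-149886932, minus strand: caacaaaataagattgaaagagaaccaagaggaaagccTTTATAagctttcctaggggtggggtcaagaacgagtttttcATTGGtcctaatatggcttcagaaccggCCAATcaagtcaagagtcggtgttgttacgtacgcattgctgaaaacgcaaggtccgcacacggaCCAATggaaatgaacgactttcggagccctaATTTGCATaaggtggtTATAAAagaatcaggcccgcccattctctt
HIST1H2AC, chr6:26123922-26124171, plus strand: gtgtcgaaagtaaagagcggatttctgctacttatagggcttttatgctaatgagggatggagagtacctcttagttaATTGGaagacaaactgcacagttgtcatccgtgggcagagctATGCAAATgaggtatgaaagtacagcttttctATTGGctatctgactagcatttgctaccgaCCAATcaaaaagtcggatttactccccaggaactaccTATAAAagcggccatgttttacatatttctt
Both promoters hold all 3 motifs, so these letters do not distinguish the gene that rose from the gene that fell. In windows of 250 bases before and 50 after the start, the octamer was found in 15 of 38 members (39.5%), against 1.77% of 35116 RefSeq promoters. It was present in 11 of 15 H2B and 4 of 8 H2A promoters, and in none of the H1, H3 and H4 promoters. Each of the 4 H2A genes lies next to an H2B gene on the opposite strand that also holds it. The windows of such neighbours cover largely the same bases. CCAAT was found in 31 of 38 promoters (81.6%, against 34.6%), including all 15 H2B and all 8 H2A promoters but 1 of 8 H4 promoters. TATAAA was present in 25 of 38 (65.8%, against 11.5%). AGAACA, letters found in androgen response elements, was present in 11 of 38 (28.9%, against 14.8%). The E2F letters TTTGGCGC or TTTCCCGC were in 0 of 38 windows, against 2.27% of all. Windows of neighbours on opposite strands overlap, and those of near-identical copies are nearly the same, so these motif counts are not counts of separate promoters. A match of letters is not evidence of binding.

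Histone reads were a small part of each library. The protein-coding members held 0.0107% to 0.0215% of the counted reads in VCaP and 0.0295% to 0.0481% in LAPC4. Members with a long form made up a median of 63.4% of the summed histone CPM in VCaP and 78.2% in LAPC4, although they are fewer than the members with short forms. All these sums include both HIST2H4A and HIST2H4B, near-identical genes with a long form and means of 63.0 and 62.7 CPM in LAPC4. Reads of this pair may be counted at both copies, which would raise the shares given here. Divided by the length of the longest annotated transcript, the highest mean level in both lines was that of the pseudogene HIST1H3PS1, at 70.2 CPM per kb in VCaP and 170 CPM per kb in LAPC4. HIST1H3PS1 shares 11.4% of its 50-base stretches with H3-3A, an H3 gene outside the clusters. Its count may therefore hold reads of that gene and is uncertain. Among protein-coding members in VCaP, HIST1H1C, which encodes a linker histone H1, followed with 39.3 CPM per kb. HIST1H2BK (H2B) had 19.2, HIST1H2AC 14.8 and HIST2H2BE 8.9 CPM per kb in this line. In LAPC4, HIST2H4A, one of the genes that encode H4, had 40.7, HIST1H2AC 32.6, HIST1H1C 30.7 and HIST2H2BE 20.7 CPM per kb. HIST1H2BK was named here after its values were seen. It shares 57.2% of its 50-base stretches with other genes, so its count is uncertain.

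To ask how androgen acts on these genes, R1881 was compared with DMSO. In VCaP cells at 22 h, histone genes moved in both directions. HIST2H2BE, HIST1H3E, HIST2H2AA4 and HIST1H2BD were 1.75- to 2.6-fold higher with R1881, while HIST1H2AC was 1.46-fold lower. By the quasi-likelihood test of edgeR, called at a Benjamini-Hochberg adjusted p under 0.05 over all genes, 13 of the 36 tested members were higher and 8 lower. These are 36.1% and 22.2% of the members, against 37.4% and 40% of all 19266 tested genes. The median log2 fold change was 0.27 over the members and -0.03 over all genes. The share of members that were higher was thus near that of all genes, and the share that were lower was below it. With DMSO and R1881 replicates 6 and above only, 12 members were higher and 3 lower. With library totals in place of TMM the split was 12 and 9, and the median of all genes shifted to -0.145.

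Genes for H2B held 6 of the rises, with 2 falls among 13 tested, against 37.4% higher and 40% lower among all genes. HIST2H2BE (chromosome 1, 149884459 to 149886682, minus strand, 1 exon, a 3′ UTR of 1801 bases) had 14.5 to 20.2 CPM with DMSO (median 15.5, n = 8) and 36.9 to 45.6 CPM with R1881 (median 42.6, n = 9) at 22 h. The 2 groups did not overlap. The log2 fold change was 1.38 (SE 0.0605, adjusted p = 4.66e-28). HIST1H2BD (chromosome 6, 26158122 to 26171349, plus strand), another H2B gene with a poly(A) signal, had 7.1 to 9.03 CPM with DMSO (median 8.14) and 12.8 to 15.4 CPM with R1881 (median 14.7). Here, too, every R1881 library was above every DMSO library, with a log2 fold change of 0.81 (SE 0.0853, adjusted p = 1.68e-12). HIST2H2BF (0.65, adjusted p = 3.81e-06) and HIST1H2BE (0.38, adjusted p = 0.000128), also H2B genes, rose less. HIST2H2BF shares 50.6% of its 50-base stretches with other genes and lies across FCGR1A on the opposite strand, so its count is uncertain. HIST1H2BG (-0.39, adjusted p = 5.37e-05) and HIST1H2BN (-0.46, adjusted p = 7.55e-05), again H2B genes, fell.

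Of 8 tested H2A genes, 3 were higher and 2 lower, against 37.4% and 40% of all genes. HIST1H2AC (chromosome 6, 26124145 to 26139116, plus strand, up to 2 exons) had 38.3 to 44.7 CPM with DMSO (median 41.6) and 25.5 to 31.6 CPM with R1881 (median 28.8) at 22 h. All R1881 libraries lay below all DMSO libraries. The log2 fold change was -0.54 (SE 0.0456, adjusted p = 4.39e-16). HIST2H2AA4, one of a pair of H2A genes that share 99.8% of their 50-base stretches, had 0.577 to 2.06 CPM with DMSO (median 1.06) and 1.39 to 4.18 CPM with R1881 (median 2.99). These groups overlapped, and the log2 fold change of 1.13 had an SE of 0.253 (adjusted p = 7.45e-05). HIST3H2A, the H2A gene of the HIST3 cluster, was lower by a log2 fold change of -0.28 (adjusted p = 0.0377), a call that was lost without the filter on low counts and with either set of control replicates.

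HIST1H3E was the one H3 gene called of 2 tested. It lies on chromosome 6 from 26224199 to 26227473 on the plus strand. Its level was 2.1 to 3.82 CPM with DMSO (median 3.14) and 6.0 to 7.74 CPM with R1881 (median 6.5). The groups were apart, and the log2 fold change was 1.11 (SE 0.0964, adjusted p = 2.05e-15). The H3 pseudogene HIST1H3PS1, whose count may hold reads of H3-3A, was slightly lower (-0.20, adjusted p = 0.000654). It went from 28.8 to 34.7 CPM (median 31.1) to 21.4 to 30.9 CPM (median 26.4), which overlap. Of 7 H4 genes, 1 was higher and 3 were lower, against 37.4% and 40% of all genes. HIST1H4H rose (0.53, SE 0.0656, adjusted p = 1.95e-10) from a median of 9.28 to 13.4 CPM, with no overlap between 7.96 to 10.0 CPM and 11.4 to 14.8 CPM. HIST2H4A and HIST2H4B, near-identical H4 genes that share 97.5% or more of their 50-base stretches, were each lower by a log2 fold change of -0.17 (adjusted p = 0.0167). HIST2H4A ranged from 7.38 to 9.45 CPM with DMSO and 6.71 to 9.0 CPM with R1881, which overlap, and with control replicates 6 and above its fold change was 0.02. Of the linker histones, HIST1H1C had medians of 33.8 and 36.2 CPM with DMSO and R1881, which did not pass the test (log2 fold change 0.09, adjusted p = 0.335).

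Some members outside the rule for named genes, chosen after their values were seen, had the largest fold changes at low levels. HIST4H4, the single H4 gene of the HIST4 locus on chromosome 12 (14767999 to 14771131, minus strand), had 1.54 to 2.58 CPM with DMSO (median 1.97) and 0.14 to 0.574 CPM with R1881 (median 0.243) at 22 h. The groups were apart, with a log2 fold change of -2.92 (SE 0.219, adjusted p = 6.96e-18), the largest fall among the members. HIST1H1E, a linker histone gene, had 0.0481 to 0.262 CPM with DMSO (median 0.209) and 0.441 to 1.51 CPM with R1881 (median 0.929). It had the largest rise, with a log2 fold change of 2.30 (SE 0.301, adjusted p = 1.07e-09), and no overlap between the groups.

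**Figure D1:**
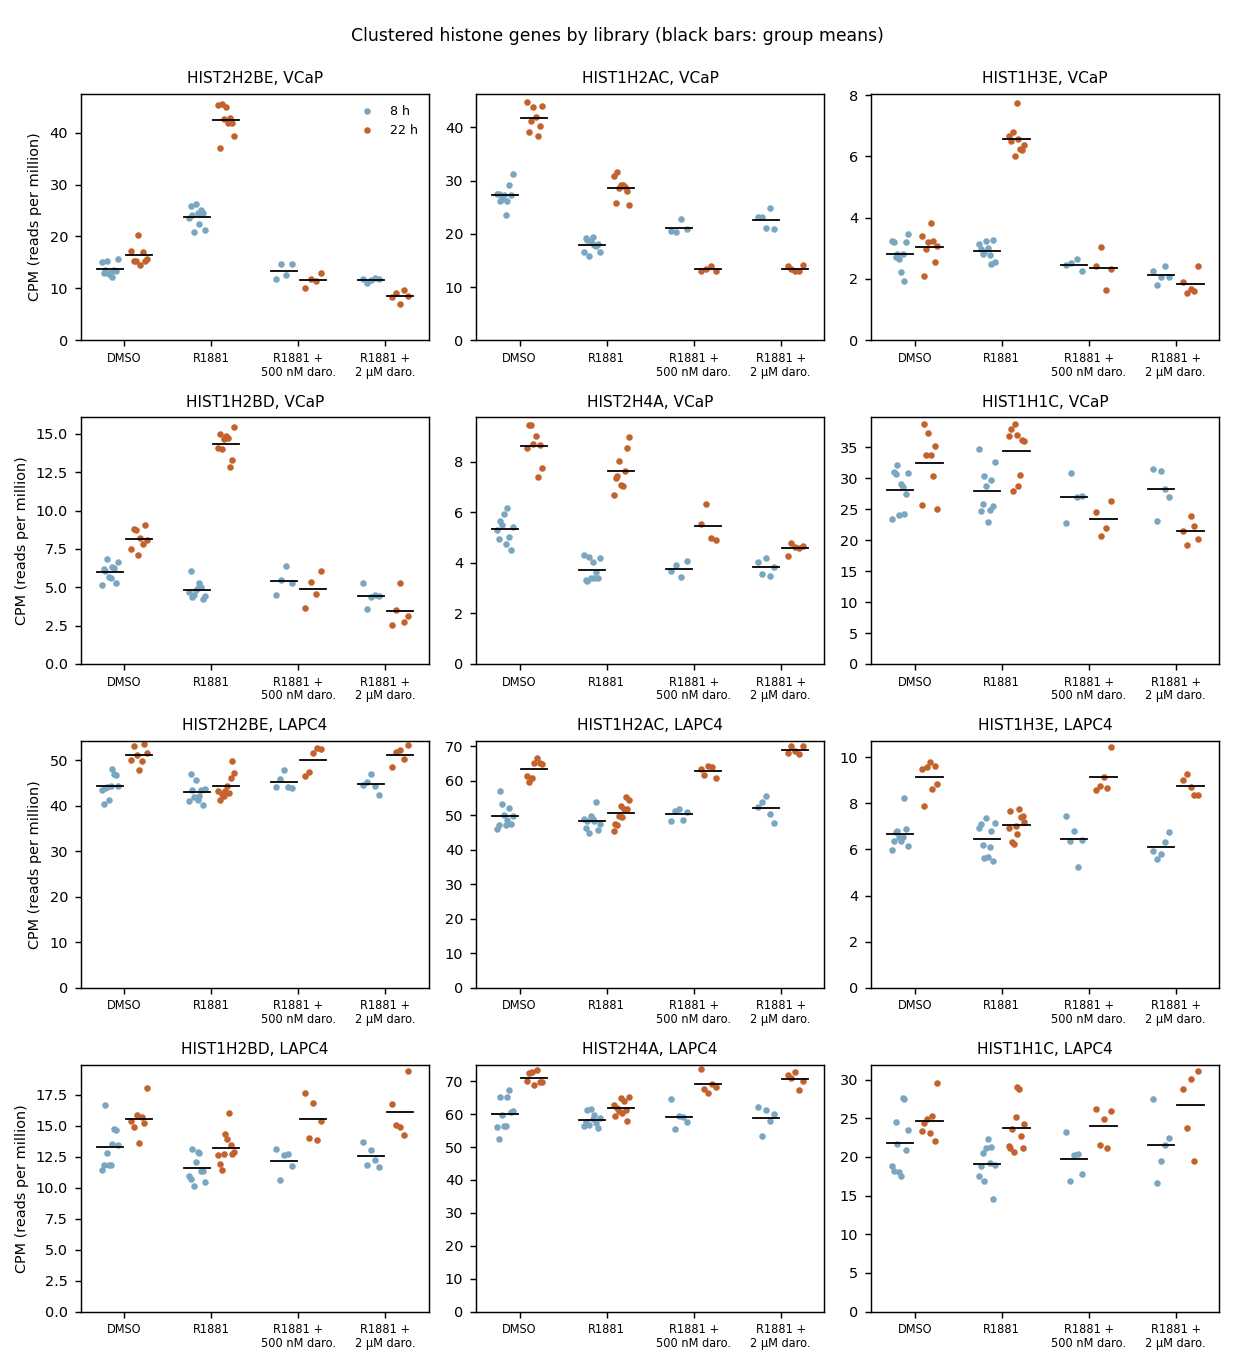
Levels of 6 clustered histone genes in every library, in CPM on linear axes that start at 0, for VCaP (upper 6 panels) and LAPC4 (lower 6 panels). Points are libraries at 8 h (blue) and 22 h (orange), black bars are group means, and daro. stands for darolutamide. In VCaP at 22 h, HIST2H2BE, HIST1H3E and HIST1H2BD stand above all other groups with R1881, and HIST1H2AC is lowest with darolutamide.

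After 8 h of R1881, most called histone genes of VCaP were lower. Of the 36 members, 3 were higher and 13 lower (8.33% and 36.1%, against 32.8% and 34.1% of all genes). The share that fell was near that of all genes, and the share that rose was well below it. The median log2 fold change was -0.30, against -0.03 over all genes. The 3 rises were HIST2H2BE (0.79, SE 0.0562, adjusted p = 9.43e-19), HIST2H2BF (0.57, adjusted p = 1.88e-05) and the pseudogene HIST2H2BA. HIST2H2BE went from 12.1 to 15.6 CPM with DMSO (median 13.5) to 20.8 to 26.2 CPM with R1881 (median 24.3), without overlap. HIST1H2BG fell furthest among the named protein-coding genes, from 4.47 to 6.6 CPM (median 5.74) to 1.88 to 3.13 CPM (median 2.7), also without overlap (log2 fold change -1.09, SE 0.0863, adjusted p = 7.44e-17). HIST1H2AC (-0.61), HIST1H2BN (-0.74), HIST3H2A (-0.67), HIST2H4A (-0.51), HIST1H2BE (-0.44) and HIST1H2BD (-0.31) were lower as well. HIST4H4 was lower by -3.86 (SE 0.215, adjusted p = 2.74e-23), from a median of 2.31 to 0.151 CPM. With library totals in place of TMM, 3 members were higher and 17 lower, and the median of all genes was -0.177.

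In VCaP, the histone genes whose R1881 effect differed between the time points did so mostly in one direction. In the test of this difference, 20 of 36 members had a higher log2 fold change at 22 h than at 8 h and 2 a lower one. These are 55.6% and 5.56% of the members, against 28.1% and 32.3% of all genes. The share of members that differed in either direction was thus near that of all genes, while the split by direction was not. The median difference was 0.53 over the members and -0.03 over all genes. By class and form, the difference was towards higher values for 8 of 13 H2B genes (none lower), 3 of 8 H2A genes (none lower), 6 of 7 H4 genes (1 lower), 12 of the 15 members with a long form (none lower) and 8 of the 17 with short forms (1 lower). The H4 genes include the near-identical pairs HIST2H4A and HIST2H4B, and HIST1H4J and HIST1H4K. Of the 4 pseudogenes tested, none was higher and HIST1H3PS1 was lower (-0.29, adjusted p = 0.000403).

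HIST1H2BD changed direction between the time points. It fell from a median of 6.11 CPM (5.14 to 6.85) to 4.74 CPM (4.24 to 6.05) at 8 h and rose from 8.14 to 14.7 CPM at 22 h, a difference of 1.12 in log2 fold change (SE 0.121, adjusted p = 8.33e-12). HIST1H2BE did the same, with -0.44 at 8 h and 0.38 at 22 h (difference 0.82, adjusted p = 1.25e-07). HIST1H3E had 0.04 at 8 h, which did not pass the test, and 1.11 at 22 h (difference 1.06, adjusted p = 1.03e-09). HIST2H2BE rose at both times and more at 22 h (difference 0.59, adjusted p = 1.18e-08). For HIST1H2AC, by contrast, the difference of 0.07 did not pass the test (SE 0.0629, adjusted p = 0.378), with falls at both times. The difference was tested over all 10, 10, 8 and 9 control libraries. With replicates 1 to 5 only, it was called for 12 members in the higher and 1 in the lower direction.

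**Figure D2:**
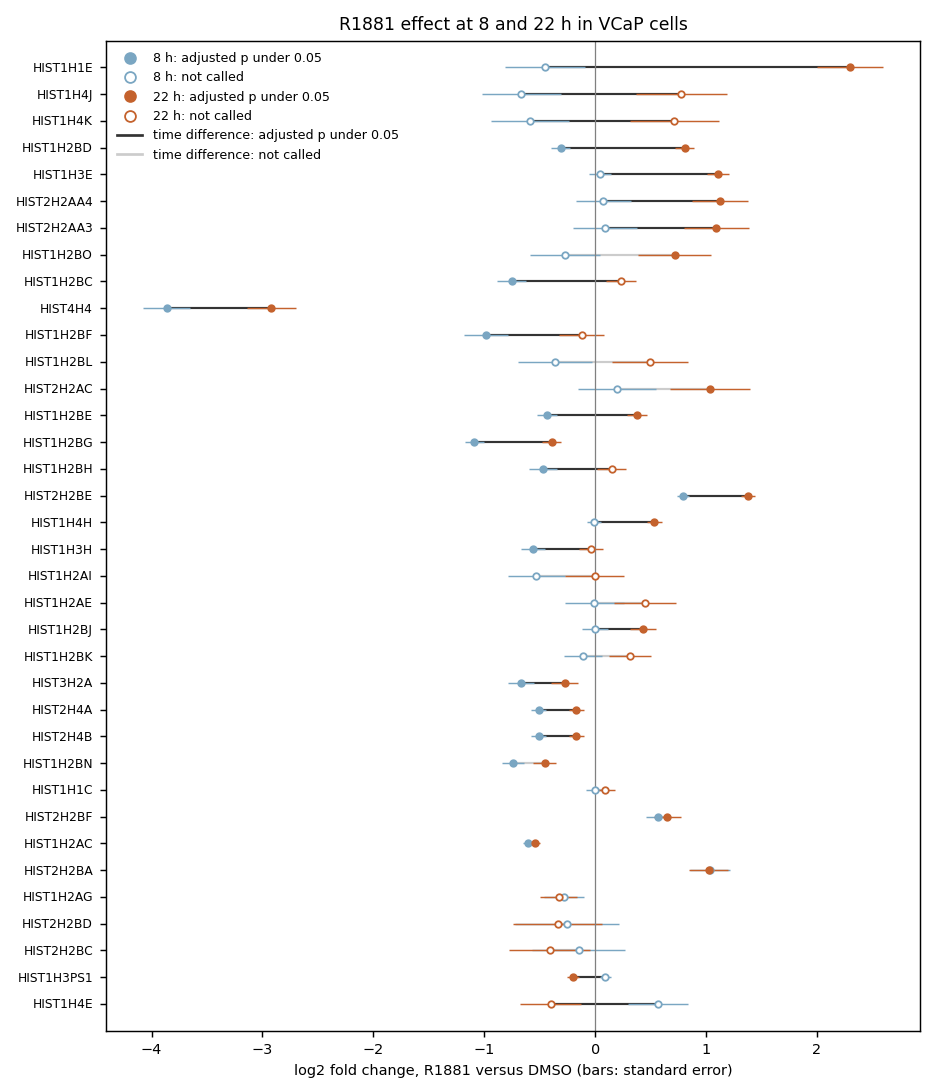
Log2 fold change of R1881 against DMSO at 8 h (blue) and 22 h (orange) for the 36 clustered histone genes tested in VCaP, ordered by the difference. Filled points passed an adjusted p of 0.05, bars are standard errors, and dark lines join the pairs whose difference passed it. For 20 genes the dark line runs towards higher values at 22 h, and for 2 towards lower ones.

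The DMSO groups themselves differed with time in culture. In VCaP, 12 of 36 members were higher at 22 h than at 8 h and 1 was lower (33.3% and 2.78%, against 15.9% and 13.9% of all genes). HIST1H2AC was 1.53-fold higher, going from a median of 27.4 to 41.6 CPM (log2 fold change 0.61, SE 0.0442, adjusted p = 3.07e-17). HIST2H4A rose 1.62-fold (0.70, SE 0.0653, adjusted p = 4.84e-13). With control replicates 1 to 5 the count was 8 higher and 0 lower, and with replicates 6 and above 6 higher and 0 lower. In LAPC4, 11 of 40 members were higher and 0 lower (27.5% and 0%, against 10.7% and 11.4% of all genes). At an unadjusted p under 0.05 these were 16 and 0, and with DESeq2 11 and 0. With control replicates 6 and above 5 were higher, and with the slope of log counts on GC content as a covariate 17, with 0 lower in both. Shares of all genes are given here for the main fit only. HIST1H2AC rose in this line too, from 45.9 to 57.1 CPM (median 49.2) to 59.8 to 66.7 CPM (median 64.8), with a log2 fold change of 0.35 (adjusted p = 7.96e-11). HIST1H3E was 1.37-fold higher (adjusted p = 9.94e-08).

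The next comparison asked what darolutamide did in the presence of R1881. In VCaP at 22 h, histone genes fell with 2 µM darolutamide, many of them below their level with DMSO. Against R1881 alone, 17 of 36 members were lower and 6 higher (47.2% and 16.7%, against 30.8% and 36.1% of all genes). Against DMSO, 16 were lower and 3 higher (44.4% and 8.33%, against 28.5% and 30.5%). The 2 comparisons share the darolutamide libraries, and the first shares its R1881 libraries with the comparison of R1881 with DMSO. Their values are therefore given side by side.

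HIST2H2BE had 8.41, 9.02, 6.96, 9.76 and 8.58 CPM with 2 µM darolutamide, against 36.9 to 45.6 CPM with R1881 and 14.5 to 20.2 CPM with DMSO. All 5 libraries lay below both control groups. The level was 4.95-fold lower than with R1881 (log2 fold change -2.31, SE 0.0762, adjusted p = 2.2e-33) and 1.9-fold lower than with DMSO (-0.93, adjusted p = 9.92e-16). HIST1H2BD had 2.56, 3.52, 5.24, 2.74 and 3.14 CPM, again below both control groups, with log2 fold changes of -2.06 against R1881 and -1.25 against DMSO (adjusted p = 7.26e-24 and 2.08e-14). HIST1H3E had 1.89, 1.54, 1.67, 1.61 and 2.44 CPM. These were below all R1881 libraries, and 1 of them was within the range of DMSO (-1.84 against R1881 and -0.74 against DMSO, adjusted p = 2.97e-20 and 1.4e-06).

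HIST1H2AC, which R1881 had lowered, was lower still with darolutamide. Its levels were 14.0, 13.4, 12.9, 13.0 and 14.1 CPM, against 25.5 to 31.6 CPM with R1881 and 38.3 to 44.7 CPM with DMSO. No library of one group reached into another. The log2 fold changes were -1.09 against R1881 (SE 0.0566, adjusted p = 2.63e-24) and -1.63 against DMSO (SE 0.0578, adjusted p = 2.29e-31). HIST2H4A (-0.74 and -0.91) and HIST1H2BG (-0.64 and -1.03) were likewise lower than both. HIST1H1C, which did not pass the test with R1881, was lower than both, with 21.6, 19.2, 23.8, 22.3 and 20.2 CPM (-0.69 and -0.60, adjusted p = 2.53e-08 and 1.27e-06). These libraries lay below all R1881 and all DMSO libraries at 22 h.

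Other members did not follow this. HIST4H4 (chosen after its values were seen) was 2.87-fold higher with 2 µM darolutamide than with R1881 (log2 fold change 1.52, adjusted p = 3.63e-06) and 2.64-fold lower than with DMSO (-1.40, adjusted p = 6.69e-08). HIST1H2BN was higher than with R1881 (0.26, adjusted p = 0.0406) and did not pass the test against DMSO (-0.19, adjusted p = 0.151). HIST2H2AA4 was lower than with R1881 (-0.89, adjusted p = 0.00437) and had a log2 fold change of 0.24 against DMSO (adjusted p = 0.514). Split by annotated form, 11 of the 15 members with a long form were lower than with R1881 and 3 higher (median -1.09), and of the 17 with short forms 5 were lower and 2 higher (median -0.15). Of 7 protein-coding HIST2 members, 6 were lower and 0 higher, and of 23 HIST1 members 10 were lower and 4 higher, against 30.8% and 36.1% of all genes. The 7 include HIST2H4A and HIST2H4B, and HIST2H2AA3 and HIST2H2AA4, pairs of near-identical copies.

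**Figure D3:**
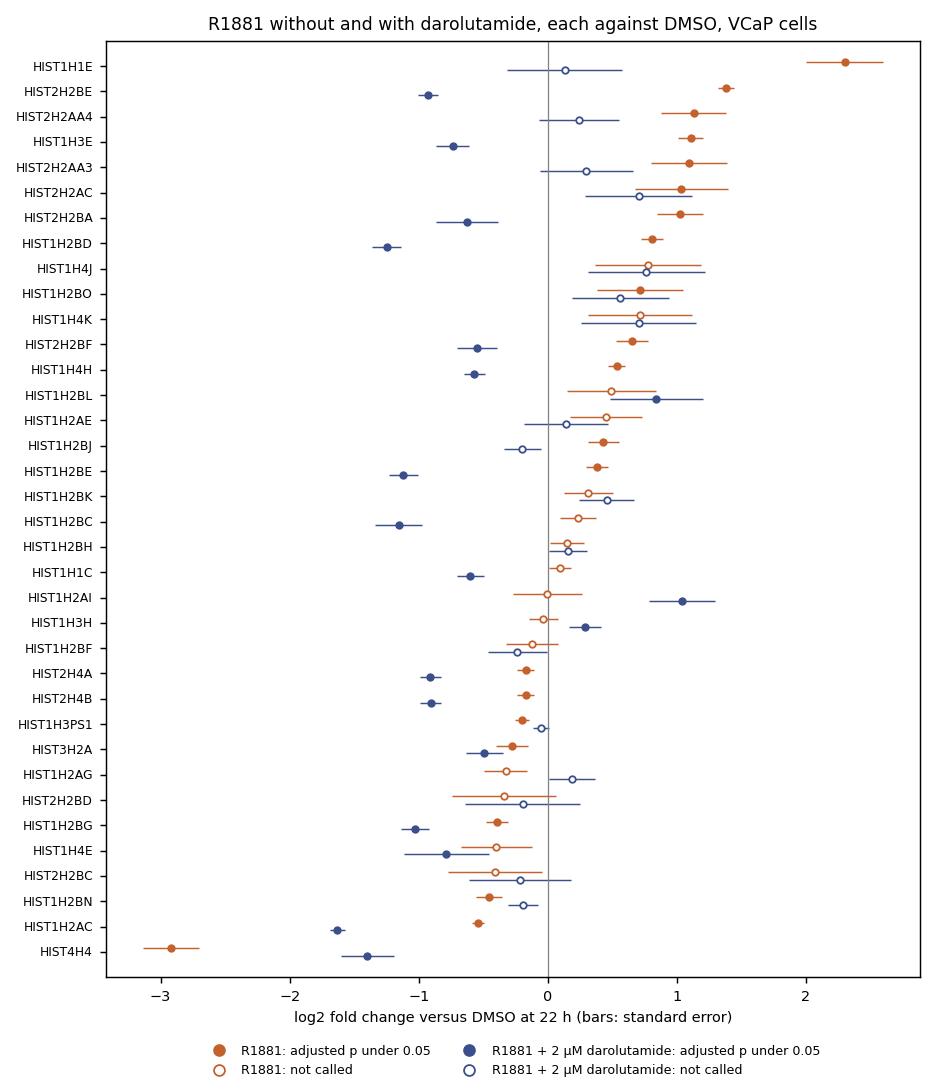
Log2 fold change against DMSO at 22 h in VCaP for R1881 alone (orange) and for R1881 with 2 µM darolutamide (blue), for the 36 tested clustered histone genes. Both sets use the same DMSO libraries. Filled points passed an adjusted p of 0.05, and bars are standard errors. With darolutamide, 16 genes lie below DMSO and 3 above.

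The lower dose gave 17 lower and 3 higher members against R1881 in VCaP at 22 h (47.2% and 8.33%, against 26.4% and 26.7% of all genes). HIST2H2BE had 9.98, 11.9, 11.4 and 13.0 CPM at 500 nM, above each of the 5 libraries at 2 µM. In the test of 2 µM against 500 nM, 4 of 36 members were lower and 0 higher (11.1% and 0%, against 9.75% and 10.4% of all genes). At an unadjusted p under 0.05 they were 7 and 1, and DESeq2 called 4 and 0. The share of members that differed between the doses was thus near that of all genes for falls. Among the 4 were HIST2H2BE (-0.43, adjusted p = 0.000185), HIST1H2BD (-0.51, adjusted p = 0.00341) and HIST1H2BE (-0.50, adjusted p = 0.00501). For HIST1H2AC, which had 12.9, 13.3, 13.9 and 13.1 CPM at 500 nM, the difference of 0.02 had an SE of 0.0685 (adjusted p = 0.91).

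At 8 h, 2 µM darolutamide changed fewer members, and the direction differed from that at 22 h. Against R1881, 6 were higher and 4 lower (16.7% and 11.1%, against 25.9% and 26.2% of all genes). With library totals in place of TMM, 7 were higher and 2 lower. HIST2H2BE was lower at 8 h (-1.04, SE 0.0718, adjusted p = 9.28e-19), as was HIST1H3E (-0.45, adjusted p = 0.00121). HIST1H2AC (0.34, adjusted p = 1.77e-07), HIST1H2BG (0.57, adjusted p = 8.92e-06), HIST1H2BN (0.46, adjusted p = 0.000731) and HIST4H4 (2.28, adjusted p = 1.85e-09) were higher than with R1881 at this time. Whether the darolutamide effect differed between the time points was not tested.

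In LAPC4 cells, the responses were smaller and went the other way for several of the same genes. At 22 h of R1881, 9 of 40 members were lower and 0 higher (22.5% and 0%, against 6.45% and 6.83% of all 18204 tested genes). At an unadjusted p under 0.05 they were 12 and 0, and with DESeq2 9 and 0. The median log2 fold change was -0.16 over the members and 0.01 over all genes. Of the 16 members with a long form 8 were lower, and of the 19 with short forms 1. With the slope of log counts on GC content as a covariate, 15 members were lower and 0 higher, and with control replicates 6 and above 2 were lower. The latter set holds only replicates 6 and 7 of DMSO at 22 h. The shares of all genes above are from the main fit and do not apply to these 2 fits. The protein-coding members tested in LAPC4 had a median GC content of 54.8%, against 47.2% of all tested genes.

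HIST1H2AC had 59.8 to 66.7 CPM with DMSO (median 64.8, n = 7) and 45.5 to 55.5 CPM with R1881 (median 50.8, n = 10) at 22 h in LAPC4. The groups were apart, as in VCaP, and the log2 fold change was -0.33 (SE 0.0373, adjusted p = 5.08e-10). HIST2H4A had 68.7 to 73.5 CPM with DMSO (median 70.0) and 57.9 to 65.1 CPM with R1881 (median 61.6), also without overlap (-0.20, SE 0.0357, adjusted p = 2.3e-05). HIST1H3E had 7.88 to 9.81 CPM with DMSO (median 9.5) and 6.24 to 7.74 CPM with R1881 (median 7.1), and HIST2H2BE had 48.0 to 53.5 CPM (median 51.2) and 41.2 to 49.7 CPM (median 43.3). The groups were apart for HIST1H3E (-0.37, adjusted p = 1.1e-05) and overlapped for HIST2H2BE (-0.21, adjusted p = 1.19e-05). HIST1H2BE (-0.33), HIST1H4H (-0.27), HIST1H2BG (-0.25), HIST1H2BD (-0.23) and HIST2H4B (-0.20) completed the 9.

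At 8 h in LAPC4, edgeR called 0 of 40 members, against 1.75% higher and 0.895% lower among all genes. At an unadjusted p under 0.05, 0 were higher and 7 lower, and DESeq2 called 0. With the first principal component as a covariate 7 members were lower, and with the GC slope 1, with 0 higher in both. For these covariate fits the shares of all genes are not given. The R1881 effect at 22 h was lower than at 8 h for HIST1H2AC (-0.28, adjusted p = 0.000165) and HIST1H3E (-0.32, adjusted p = 0.0254), and for 0 members it was higher (5% and 0% of members, against 1.41% and 1.8% of all genes). At an unadjusted p under 0.05, 6 were lower and 1 higher, and DESeq2 called 5 lower and 0 higher.

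With 2 µM darolutamide against R1881 in LAPC4 at 22 h, 9 of 40 members were higher and 0 lower (22.5% and 0%, against 5% and 5.47% of all genes). At an unadjusted p under 0.05 they were 12 and 0, with DESeq2 8 and 0, and with control replicates 6 and above 5 and 0. HIST1H2AC had 68.1, 70.3, 68.6, 67.7 and 70.1 CPM with darolutamide, above every R1881 and every DMSO library at 22 h. The log2 fold change was 0.45 against R1881 (adjusted p = 6.66e-13) and 0.12 against DMSO, which did not pass the test (SE 0.0442, adjusted p = 0.627). HIST2H4A had 71.8, 71.1, 72.8, 67.5 and 70.0 CPM, above all R1881 libraries and within or close to the DMSO range (0.19 against R1881, adjusted p = 0.000333). HIST1H2BG (0.39), HIST1H3E (0.31), HIST1H2BD (0.28), HIST2H2BF (0.28) and HIST2H2BE (0.21) were higher as well.

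The lower dose gave 6 higher and 0 lower members in LAPC4 (15% and 0%, against 2.68% and 3.21% of all genes), with 11 and 0 at an unadjusted p under 0.05 and 7 and 0 by DESeq2. Between the doses edgeR called 0 members (0.0439% higher and 0.214% lower among all genes), with 1 higher and 0 lower at an unadjusted p under 0.05 and 0 by DESeq2. Against DMSO, 2 µM darolutamide gave 0 calls among the members (0.00549% higher and 0.011% lower among all genes), with 2 higher and 0 lower at an unadjusted p under 0.05 and 0 by DESeq2. After 8 h, 2 µM darolutamide against R1881 gave 0 calls (0.467% higher and 1.08% lower among all genes), with 2 higher and 0 lower at an unadjusted p under 0.05 and 0 by DESeq2.

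The difference between the lines was tested in one fit of both. Of 33 members tested in both lines, the R1881 effect at 22 h was higher in VCaP for 9 and lower for 4 (27.3% and 12.1%, against 31.6% and 36.9% of all 16578 genes). HIST2H2BE (1.53, SE 0.0686, adjusted p = 2.47e-39) and HIST1H3E (1.42, SE 0.112, adjusted p = 9.69e-22) had the largest positive differences, and HIST4H4 had the largest negative one (-2.97, adjusted p = 1.25e-14). HIST4H4 had 0.443 to 0.821 CPM with DMSO (median 0.628) and 0.337 to 0.988 CPM with R1881 (median 0.57) in LAPC4, which overlap. HIST1H2BD (0.98), HIST1H4H (0.74) and HIST1H2BE (0.65) also differed between the lines, with a rise in VCaP and a fall in LAPC4. In all, 5 members were higher with R1881 in VCaP and lower in LAPC4, which is 5 of the 12 VCaP rises and 5 of the 9 LAPC4 falls among members tested in both lines. These are 15.2% of the 33, against 1.91% of all genes tested in both lines. The other 4 LAPC4 falls, HIST1H2AC, HIST1H2BG, HIST2H4A and HIST2H4B, were falls in VCaP too (12.1% of the 33, against 3.41% of all genes). HIST2H4A and HIST2H4B are near-identical copies and not separate measurements, so this share counts the same signal at both copies. Their VCaP fold changes also changed sign with control replicates 6 and above. With control replicates 6 and above, the difference between the lines was called for 6 members in the higher and 2 in the lower direction.

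**Figure D4:**
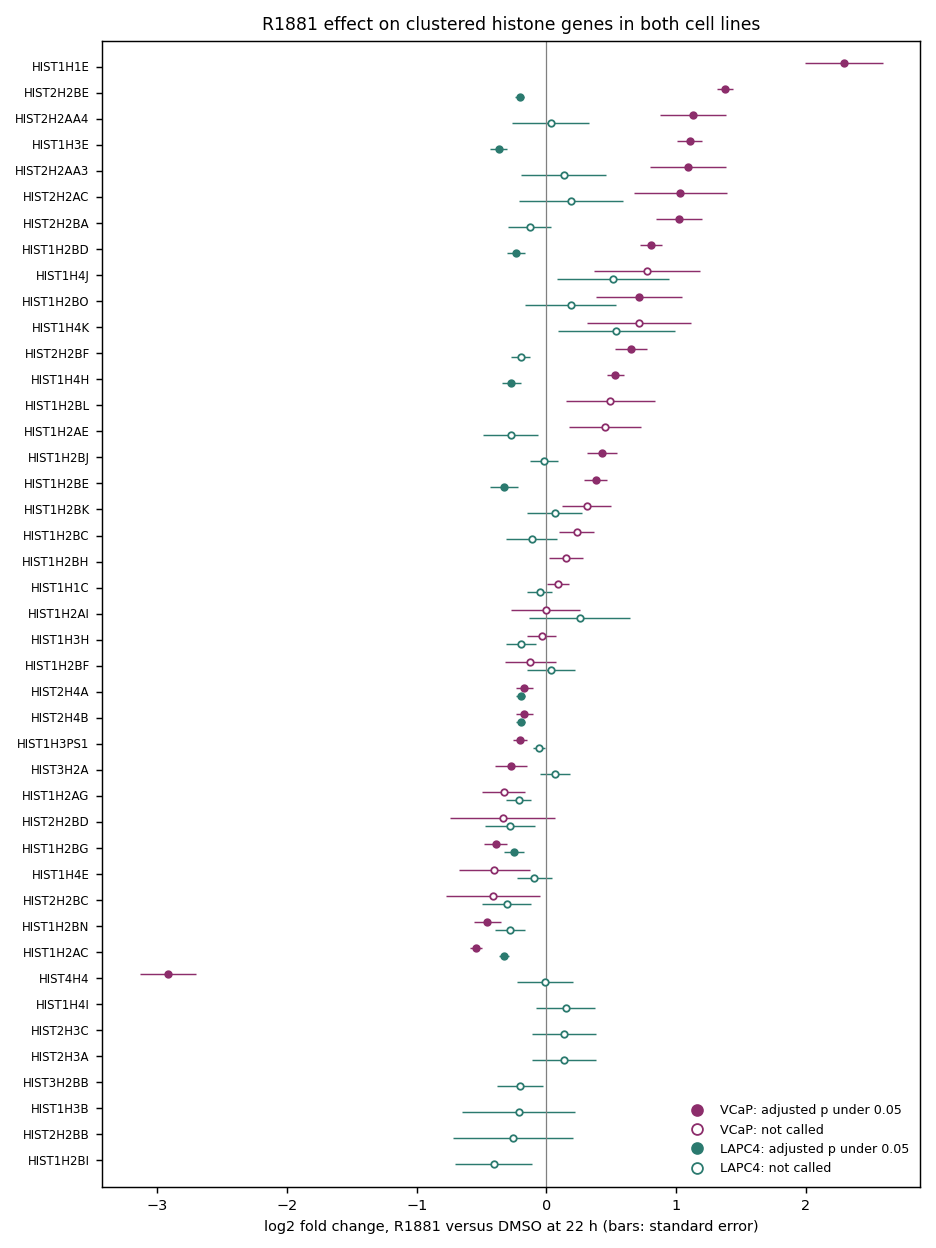
Log2 fold change of R1881 against DMSO at 22 h for every tested clustered histone gene in VCaP (purple) and LAPC4 (green). Filled points passed an adjusted p of 0.05, and bars are standard errors. VCaP values run from -2.92 (HIST4H4) to 2.30 (HIST1H1E), and LAPC4 values stay between -0.41 and 0.54.

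Several H2A and H2B genes lie head to head, with starts less than 1000 bases apart on opposite strands. There were 6 such pairs among the members, and the partners' values in VCaP are given side by side. HIST2H2BE and HIST2H2AC start 236 bases apart, and with R1881 at 22 h in VCaP both were higher (1.38 and 1.03, adjusted p = 4.66e-28 and 0.00842). HIST2H2AC, an H2A gene, was at 0.0 to 0.611 CPM with DMSO and 0.252 to 0.982 CPM with R1881 there. In HIST1H2BC and HIST1H2AC, 219 bases apart, HIST1H2AC was lower (-0.54) and HIST1H2BC, an H2B gene, had 0.23, which did not pass the test (adjusted p = 0.114). HIST1H2BG was lower (-0.39), and its partner HIST1H2AE, 233 bases away, had 0.45 (adjusted p = 0.133). HIST1H2BJ was higher (0.43, adjusted p = 0.00109), and its partner HIST1H2AG, 248 bases away, had -0.33 (adjusted p = 0.0679). HIST3H2A was lower (-0.28, adjusted p = 0.0377 by edgeR), and its partner HIST3H2BB, 230 bases away, was not tested in VCaP. HIST1H2BL and HIST1H2AI, 244 bases apart, had 0.49 and -0.0046, and neither passed the test (adjusted p = 0.187 and 0.987). The differences within pairs were not tested. The partners other than HIST2H2BE, HIST1H2AC, HIST1H2BG and HIST3H2A were named after their values were seen.

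Other genes of histone supply and S phase were counted on lists. Of 24 S-phase genes in VCaP, 14 were higher and 4 lower with R1881 at 22 h (median log2 fold change 0.17), against 37.4% and 40% of all genes. With 2 µM darolutamide against R1881 all 24 were higher (median 1.07), against 36.1% of all genes, while the median over the clustered histone genes was -0.36. The summed level of these S-phase genes was 1515.6 to 1583.3 CPM with DMSO, 1710.4 to 1798.2 CPM with R1881 and 3606.2 to 3854.8 CPM with 2 µM darolutamide at 22 h. The summed level of the protein-coding histone members was 168.5 to 199.9, 199.5 to 226.1 and 106.3 to 124.7 CPM in the same groups. The S-phase list thus was highest where the histone sum was lowest. PCNA, the sliding clamp of DNA polymerase, rose by 1.16 (adjusted p = 5.08e-39) with darolutamide, and CDC6 and FEN1, which act in origin licensing and lagging-strand synthesis, rose by 0.80 and 0.94. In LAPC4, 21 of the 24 were higher with R1881 (median 0.23) and 0 lower, against 6.83% and 6.45% of all genes. With darolutamide 15 were lower and 0 higher (median -0.18), against 5.47% and 5%. The called S-phase genes and the called histone genes of LAPC4 thus moved in opposite directions with both treatments. In VCaP, the mean of both sums was higher with R1881 than with DMSO. The part of the cell cycle in the histone values was not tested.

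Of 19 genes that control histone mRNA, 12 were higher and 6 lower with R1881 at 22 h in VCaP (against 37.4% and 40% of all genes), and 12 were higher and 3 lower with darolutamide against R1881 (against 36.1% and 30.8%). ZCCHC6, a terminal uridylyl transferase that takes part in histone mRNA decay, rose with R1881 (1.33, adjusted p = 1.48e-34) and fell with darolutamide (-1.15, adjusted p = 3.63e-28). CDK2, the kinase that activates histone transcription through NPAT, and CDC25A, the phosphatase that activates CDK2, rose with both (0.97 and 0.92 with R1881, 0.34 and 0.62 with darolutamide). SLBP, the stem-loop binding protein, rose with R1881 (0.52, adjusted p = 2.39e-21) and was higher again with darolutamide (0.42), and NPAT, the coactivator of histone gene transcription, fell with R1881 (-0.34) and was higher with darolutamide (0.53). SLBP and NPAT were named after their values were seen. In LAPC4, 5 of the 19 were higher and 1 lower with R1881 (against 6.83% and 6.45% of all genes), and 0 were higher and 3 lower with darolutamide (against 5% and 5.47%). Of 21 histone chaperones, 10 were higher and 5 lower with R1881 in VCaP, and 16 higher and 3 lower with darolutamide, beside the same shares of all genes as above (37.4% and 40%, and 36.1% and 30.8%). HAT1, which acetylates new H4, rose with R1881 (0.80), UBN1, a subunit of the HIRA complex, rose (0.58), and NAP1L1, an H2A-H2B chaperone, fell (-1.09). In LAPC4, 7 of the 21 chaperones were higher and 0 lower with R1881 (against 6.83% and 6.45% of all genes).

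Histone genes outside the clusters, many of which are expressed through the cell cycle, held calls in both directions, as all genes did. Of 12 tested, 6 were higher and 4 lower with R1881 at 22 h in VCaP (against 37.4% and 40% of all genes), and 6 higher and 4 lower with darolutamide against R1881 (against 36.1% and 30.8%). H1F0, a linker histone gene typical of non-dividing cells, rose with R1881 (0.64, adjusted p = 8.18e-32) and fell with darolutamide (-1.04, adjusted p = 1.48e-37). H2AFY, the gene of the variant macroH2A, rose (0.57) and H2AFJ, the gene of H2A.J, fell (-1.76, adjusted p = 7.73e-21) with R1881. In LAPC4, 1 was higher and 2 lower with R1881 (against 6.83% and 6.45% of all genes).

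The replicate libraries agreed better for some members than for others. Among members with a mean of at least 1 CPM in LAPC4, the SD of log2(CPM + 0.1) within groups had a median of 0.149 for the 14 with a long form and 0.439 for the 9 with short forms only. In VCaP these were 0.206 (15 members) and 0.309 (6 members). HIST2H2AA4 shows this in LAPC4, with 45.0, 12.6, 14.8, 15.8 and 19.6 CPM in the 5 libraries with 500 nM darolutamide at 22 h and 22.0, 12.5, 21.8, 6.97 and 38.1 CPM in those with 2 µM. These libraries differ several-fold within a group, while the 2 groups overlap over most of their range. HIST1H2AC in the same libraries stayed between 61.0 and 70.3 CPM. HIST2H2AA4, which shares 99.8% of its 50-base stretches with HIST2H2AA3, has no poly(A) signal in its annotated transcript and HIST1H2AC has one. Of the 9 short-form members in LAPC4, 5 had an SD over 0.3. Others varied less, such as HIST1H2BG (SD 0.156) and HIST1H1C (SD 0.205), which have no poly(A) signal either. Whether the carry-over of tailless RNA differed between libraries was not tested.

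**Figure D5:**
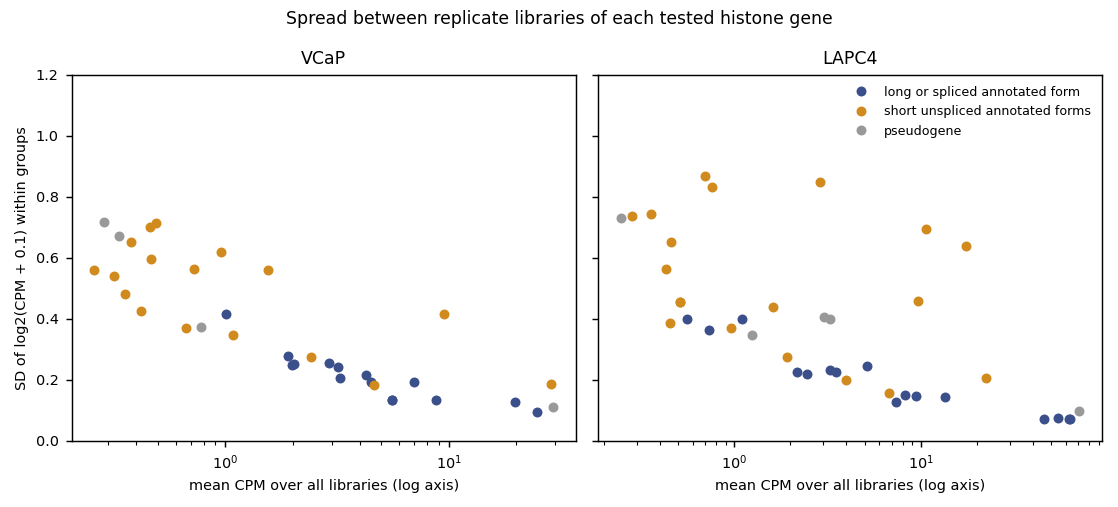
Spread between replicate libraries for each tested clustered histone gene, as the SD of log2(CPM + 0.1) within groups, against its mean CPM on a log axis, in VCaP (left) and LAPC4 (right). Genes with a long or spliced annotated form are blue, genes with short unspliced forms orange and pseudogenes grey. In LAPC4, several orange points above 1 CPM lie over 0.4, where 0 of the blue points above 1 CPM lie.

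Near-identical copies limit single counts. HIST2H3A and HIST2H3C, both H3 genes, had the same count in 112 of 112 libraries, and HIST2H4A and HIST2H4B in 40 of 112 with differences of at most 12 reads. These copies are 1 measurement each. HIST2H2AA3 and HIST2H2AA4 share nearly all of their sequence but had 13403 and 21637 reads in all and equal counts in 0 of 112 libraries, and HIST1H4J and HIST1H4K had equal counts in 56 of 112. With each of these 4 pairs counted once, 11 of 29 protein-coding members were higher and 6 lower with R1881 at 22 h in VCaP, against 37.4% and 40% of all genes. The share that was higher was thus near that of all genes. In LAPC4, 0 of 31 were higher and 8 lower, against 6.83% and 6.45% of all genes. Of the 43 members, 21 overlap another annotated gene, 7 of them one on the opposite strand. Among the 21, HIST1H2AC, HIST1H2BD, HIST1H2BE and HIST1H3E lie wholly within another annotated gene on the same strand. HIST1H2BG, HIST1H4H and HIST1H3PS1 lie wholly within one on the opposite strand. Whether these overlaps affected their counts was not tested. The strand setting of the counting is not given in the sources used here.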

How the data were processed

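RNA was isolated on columns with DNA digestion and mRNA was selected on poly-T beads. Single reads of 50 bases were taken from stranded libraries. Alignment was to GRCh38 with STAR, and featureCounts of the Subread package gave the raw counts per gene that the authors deposited for 112 libraries in 1 table. The submitters' processing notes also name bcl2fastq 2.17. The annotation, strand setting and treatment of reads with several matches are not given in the sources used here. Reads from near-identical genes can count at each copy or at none, so such counts are uncertain.

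Groups came from the sample labels. Genes that reached 10 reads in 4 or more libraries of a line were fitted over all 8 groups in edgeR 4.0.16 (glmQLFit and glmQLFTest, TMM, R 4.3.3), both lines together for the difference between lines. Benjamini-Hochberg adjustment covered all tested genes. SE was taken as the size of the log2 fold change over the root of F. CPM use the same TMM factors. The fit was tested on simulated counts. Alternatives were DESeq2 1.42.0, library totals, other filters, the groups compared alone, a GC slope or first principal component as covariate, control replicates 1 to 5 or 6 and above, a replicate block, and omission of each darolutamide replicate. Coordinates and transcripts are from GENCODE 44 on GRCh38, promoters from RefSeq. All 43 members matched both.

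The members and lists were chosen with earlier results of these data known. Named members were, per line, the 4 with the highest mean CPM, the 5 largest called rises and falls with R1881 at 22 h above a mean log2 CPM of 0, the 3 with the smallest p for 2 µM darolutamide and for the time difference, and up to 5 called in opposite directions in the lines, plus the 3 genes of each other list with the smallest p in VCaP. Some of the prostate markers examined are not reported here.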

Additional observations from a re-analysis of the deposited data

Results flagged for a closer look

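A gap between the highest or lowest library and the rest of its group was tested by Dixon's criterion for the named members, and 12 of 240 groups passed it. Chance alone flags about 1 in 20 groups. In VCaP these were HIST1H3E with R1881 at 22 h (highest library 7.74 CPM), HIST1H3PS1 in the same group (lowest 21.4 CPM) and HIST1H2BN with 500 nM darolutamide at 22 h (lowest 3.5 CPM). In LAPC4 with DMSO they were HIST1H2BE (highest 4.81 CPM), HIST1H4H (highest 13.3 CPM) and HIST3H2A (lowest 3.99 CPM) at 22 h, and HIST1H3E (highest 8.25 CPM) at 8 h. In LAPC4 with darolutamide they were HIST2H2AA4 at 500 nM and 22 h (highest 45 CPM), HIST1H3PS1 at 2 µM and 22 h (lowest 62.9 CPM), HIST1H2BN at 500 nM and 8 h (highest 3.36 CPM), and HIST1H2BE (lowest 2.54 CPM) and HIST1H4H (lowest 7.79 CPM) at 2 µM and 8 h.

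The R1881 effect differed between 22 and 8 h in VCaP, by edgeR's test of the difference, for 11 named members. The differences in log2 fold change were 0.59 for HIST2H2BE, 1.05 for HIST2H2AA4, 1.12 for HIST1H2BD, 0.82 for HIST1H2BE, 0.70 for HIST1H2BG, 1.06 for HIST1H3E, 0.54 for HIST1H4H, 0.39 for HIST3H2A, 0.34 for HIST2H4A, 0.34 for HIST2H4B and -0.29 for HIST1H3PS1. In LAPC4 they were -0.28 for HIST1H2AC and -0.32 for HIST1H3E.

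The R1881 effect at 22 h differed between VCaP and LAPC4 for 10 named members. The log2 fold change in VCaP minus that in LAPC4 was 1.53 for HIST2H2BE, 1.42 for HIST1H3E, 1.05 for HIST2H2AA4, 0.98 for HIST1H2BD, 0.79 for HIST2H2BF, 0.74 for HIST1H4H, 0.65 for HIST1H2BE, -0.40 for HIST3H2A, -0.28 for HIST1H2AC and -0.20 for HIST1H3PS1.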

How the results depend on the processing

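Of 241 recomputed counts of called members, 221 stayed within 1.5 times the count reported and 20 did not. With control replicates 1 to 5 only, the VCaP DMSO time comparison gave 8 calls and the VCaP time difference of the R1881 effect 13. With control replicates 6 and above, the VCaP DMSO time comparison gave 6 calls, LAPC4 R1881 at 22 h 2, LAPC4 2 µM darolutamide against R1881 at 22 h 5, the LAPC4 DMSO time comparison 5 and the difference between lines 8. With the GC slope, LAPC4 R1881 gave 15 calls at 22 h and 1 at 8 h, and the LAPC4 DMSO time comparison 17. With the first principal component, LAPC4 R1881 at 8 h gave 7 calls. The time difference of the R1881 effect in LAPC4, 2 calls, became 5 with library totals, filterByExpr, the GC slope, DESeq2 or only the groups compared, 1 without a filter or with control replicates 6 and above, and 11 with the first principal component. The control sets hold fewer libraries. How many of all genes each recomputed fit called is not given here, so these counts have no share of all genes beside them. The other causes were not tested. Leaving out 1 darolutamide replicate at a time, the lowest and highest counts were 20 and 22 in VCaP for 2 µM against R1881 at 22 h, 8 and 11 at 8 h, 17 and 18 for 500 nM, 3 and 5 between doses and 15 and 19 against DMSO. In LAPC4 they were 7 and 10 for 2 µM, 5 and 7 for 500 nM, and 0 in the other 3 comparisons.

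Of 300 recomputed fold changes of named members at 22 h of R1881, 273 kept direction and call, 16 lost the call, 3 gained it and 8 changed sign. The sign changed for HIST1H1C in VCaP to -0.0205 (library totals) and -0.0072 (GC slope), for HIST2H4A and HIST2H4B in VCaP to 0.0188 and 0.0146 (control replicates 6 and above), for HIST2H2AA4 in LAPC4 to -0.25 (GC slope) and -0.20 (control replicates 1 to 5), and for HIST3H2A in LAPC4 to -0.0149 (GC slope) and -0.0367 (control replicates 1 to 5). Of the losses, 10 came with control replicates 6 and above.

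The deviations of same-numbered libraries had a mean r of -0.00511 in VCaP, where 33 of 149 pairs were over 0.1, and of 0.0549 in LAPC4, where 57 of 161 were. For other pairs the means were 0.000668 and -0.00717. Since not every pair was over 0.1, the numbers were not taken to pair the libraries. This rule is strict and cannot exclude a partial pairing, and in LAPC4 the mean r was higher for same-numbered libraries. With a replicate block the LAPC4 time difference of the R1881 effect had 5 calls, and VCaP R1881 at 22 h had 20. The low levels of most short-form members limit what could be detected for them.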
